A study of Mus musculus with 32 samples.

Results

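The 6 genes described here encode enzymes that cut or glycosylate Notch receptors. Adam10 and Adam17 encode membrane proteases that shed the outer part of cell-surface proteins, Ncstn and Aph1a encode subunits of gamma-secretase, and Pofut1 and Rfng encode glycosyltransferases. They were taken by symbol, as 6 of the 9026 genes named on the array, and each had 1 probe. RNA of liver and spleen from mice cloned by nuclear transfer was hybridised on 32 arrays of 2 colours, each with a cloned mouse in 1 dye and pooled RNA of conventionally bred mice in the other. There were 4 groups of 4 male mice of strain 129/SvJ aged 18 to 19 weeks: liver of Dll1 clones, liver of wt clones, spleen of Dll1 clones and spleen of wt clones. The same 4 mice of a genotype gave both organs, and each mouse was hybridised on 2 arrays per organ, once with the clone in Cy5 and once with it in Cy3. The pool for the Dll1 clones came from Dll1 heterozygotes and the pool for the wt clones from wild-type mice, so clone and pool on an array carried the same genotype label. The design text calls the Dll1 line transgenic. No source used here gives the nature of the Dll1 allele or the donor cells behind the clones. The protocol gives 6 animals per pool and the labels list 4 mouse identifiers.

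Notch receptors are activated by ligands such as DLL1 on neighbouring cells. Ligand binding exposes the receptor to ADAM10, and in some settings ADAM17, and gamma-secretase then frees the intracellular part, which enters the nucleus and acts with RBPJ. O-fucose added by POFUT1 is needed for ligand binding, and Fringe enzymes such as RFNG extend that sugar and so tune which ligands a receptor answers. Signalling from DLL1 through NOTCH2 supports marginal zone B cells in the spleen, and Notch signalling guides bile duct formation in the liver.

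All values are log2 ratios. Their order, clone over pool, is likely from the wording of the titles and is not stated elsewhere. A mouse ratio is the mean of a mouse's 2 arrays, and a dye contrast is the value with the clone in Cy5 minus the value with the clone in Cy3, divided by 2. If the deposited Cy3 arrays had already been turned to clone over pool, the mouse ratio estimates clone over pool and the dye contrast holds what differs between the dyes. If they had not been turned, these roles are exchanged. The values above 9 in size, later set to missing, changed sign with the dye. With the clone in Cy5, 748 were positive and 0 negative, and with it in Cy3, 0 were positive and 435 negative. A constant of 1 sign would do so on turned arrays. On arrays not turned, it would need the pool channel alone to lack signal. The files do not settle which reading holds. The mean ratios of the 2 orientations correlated below 0 across rows in every group, at r = -0.38 in Dll1 liver, -0.78 in wt liver, -0.33 in Dll1 spleen and -0.47 in wt spleen. Both quantities are therefore given for each gene.

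Gene names also rest on the values. Each row was named by the probe 11 places earlier in the platform list, because probes of 1 gene then agreed best. That agreement was weak, with a mean r of 0.0562 over 2258 pairs of probes, against -0.000694 over 2171 pairs with the names as given. The highest value among the other shifts in a scan of 2001 was 0.0323. With 1 probe each, none of the 6 genes could be checked in this way. Ratios hold no expression level, so the labelled organs could not be checked by their defining genes. Dll1 itself is no check of the genotype either, since both channels of an array carried the same genotype label. Array medians lay between -0.07 and 0.08, and of 20794 rows, 59 to 230 lacked a value on a liver array and 248 to 2859 on a spleen array. In bulk tissue, fewer cells of a type and less RNA per cell cannot be told apart.

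The stretches upstream of the transcription start were read for Adam17 and Rfng, the genes with the highest and the lowest mean mouse ratio of the 6 in Dll1 spleen. They come from RefSeq on GRCm38.p6, and capitals mark the GC box letters GGGCGG, searched on both strands.
Adam17, chr12:21373663-21373732, minus strand: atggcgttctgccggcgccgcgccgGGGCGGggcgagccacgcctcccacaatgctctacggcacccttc
Rfng, chr11:120784205-120784274, minus strand: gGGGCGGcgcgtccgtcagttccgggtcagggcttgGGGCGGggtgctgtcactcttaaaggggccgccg
The first runs from 100 to 31 bases before the start and the second from 70 bases before it up to the start. In the whole window of 250 bases before the start, Rfng held 5 GC boxes, Pofut1 4, Adam10 2, Adam17 1, Aph1a 1 and Ncstn 0. Thus 5 of the 6 genes had at least 1, against 32.7% of 32851 mouse promoter windows. The letters TGGGAA, the core of the motif that RBPJ binds, were found in the window of 0 of the 6 genes, against 21.6% of all windows. TATAAA was also found in 0 of the 6, against 12.4% of all windows. The 6 windows held 57.2% to 80.4% G and C, with Aph1a lowest and Pofut1 highest, and the median of all windows was 52.4%. These matches describe the letters only.

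On the mouse ratio, none of the 6 genes passed an adjusted p of 0.05 in any of the 4 groups (limma, Benjamini-Hochberg over all features tested). In Dll1 liver 0 of 6 passed, where 0% of 16916 features were called, and 2 of the 6 had an unadjusted p under 0.05, against 9.26% of features. In wt liver 0 of 6 passed, where 0.0826% of 16948 features were called, and 0 of the 6 had an unadjusted p under 0.05, against 8.92%. In Dll1 spleen 0 of 6 passed, with 0% of 15879 features called, and 2 of the 6 had an unadjusted p under 0.05, against 10.1%. In wt spleen 0 of 5 passed, with 0% of 16470 features called, and 0 of the 5 had an unadjusted p under 0.05, against 3.70%. When each array entered limma on its own, with terms for dye and mouse, 0 of them passed in each group as well. Their median on the mouse ratio was -0.08 in Dll1 liver, with 5 of 6 below 0, and -0.02 in wt liver, with 4 of 6 below 0. It was 0.18 in Dll1 spleen, with 4 of 6 above 0, and 0.03 in wt spleen, with 3 of 5 above 0. Over all features tested the group medians lay between -0.0035 and 0.0126. On the dye contrast the medians of the genes were -0.02, 0.21, -0.15 and 0.14 in the same order of groups. The sign of the group value differed between the 2 quantities for 4 of 6 genes in Dll1 liver, 2 of 6 in wt liver, 5 of 6 in Dll1 spleen and 2 of 5 in wt spleen.

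**Figure D1:**
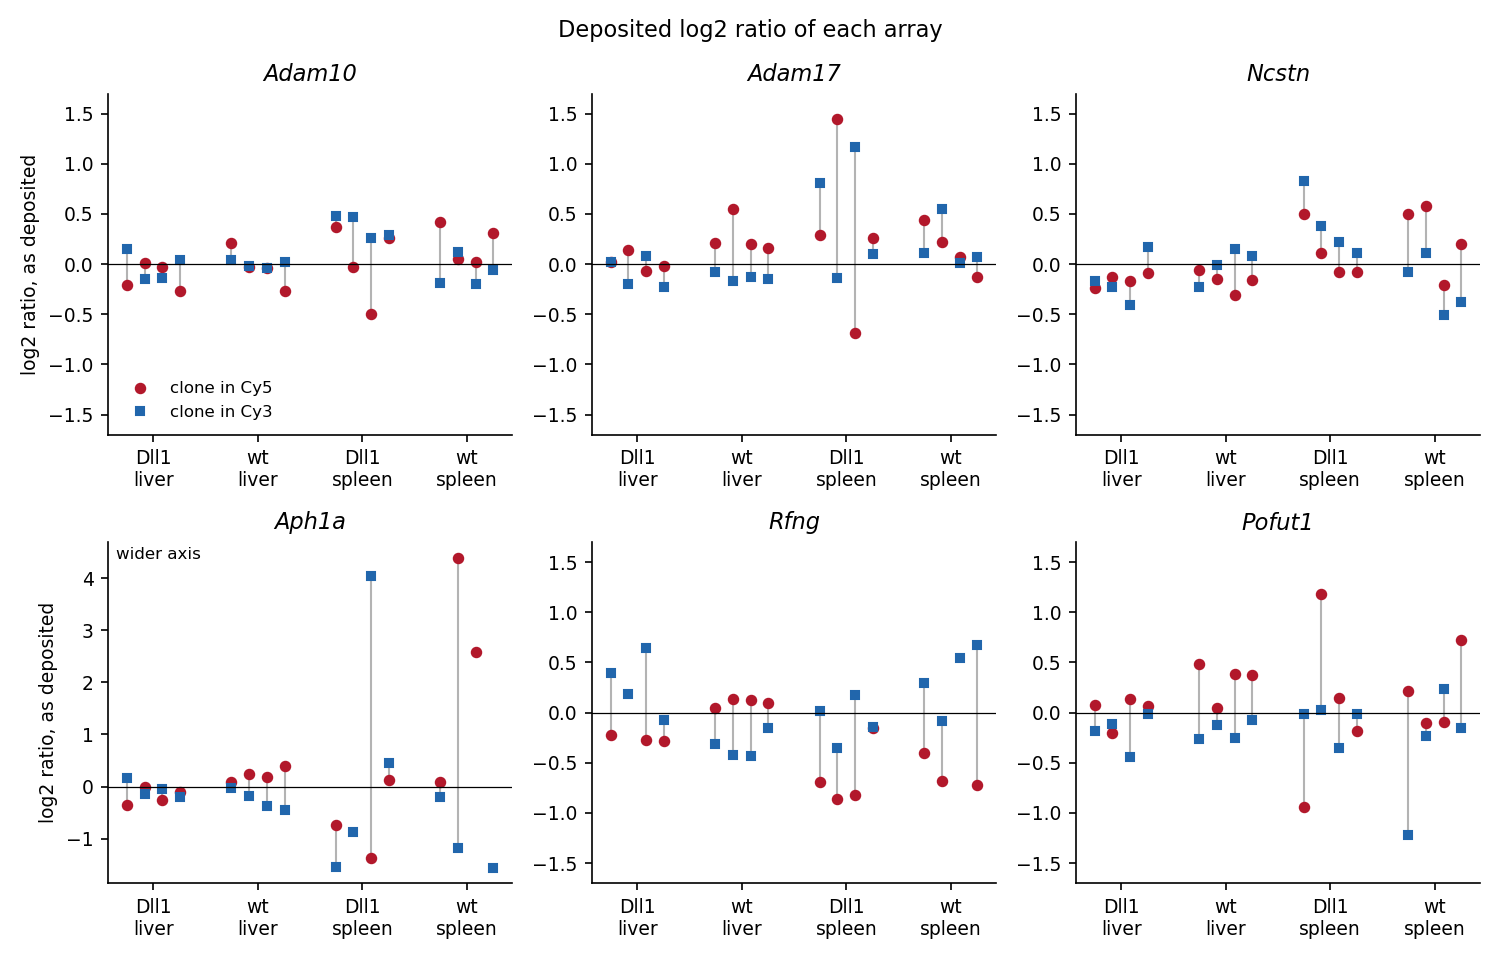
Deposited log2 ratio of each array for the 6 genes, in 4 groups of 4 mice; red circles are arrays with the clone in Cy5, blue squares those with it in Cy3, and a grey line joins the 2 arrays of a mouse. The axis for Aph1a is wider, since its spleen arrays ran from -1.56 to 4.39, and in wt liver the circles lie above 0 and the squares below 0 for Adam17, Aph1a, Rfng and Pofut1.

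Adam10, the main protease of ligand-bound Notch, had mouse ratios of -0.03, -0.07, -0.08 and -0.11 in Dll1 liver, for mice 1 to 4. In wt liver they were 0.13, -0.02, -0.04 and -0.12. Both sets of liver mice overlapped and lay close to 0. In Dll1 spleen the ratios were 0.42, 0.22, -0.12 and 0.28, and in wt spleen 0.12, 0.08, -0.09 and 0.13. In each genotype, mouse 3 was the only spleen below 0. The Dll1 spleens averaged 0.20 ± 0.23 and the wt spleens 0.06 ± 0.10 (SD, n = 4 each), with adjusted p-values of 0.588 and 0.9999 by limma. With the clone in Cy3, all 4 Dll1 spleen arrays read between 0.26 and 0.48, while those with the clone in Cy5 ranged from -0.50 to 0.37. The dye contrast of Adam10 averaged -0.05 in Dll1 liver, -0.02 in wt liver, -0.17 in Dll1 spleen and 0.14 in wt spleen, and none of these passed (limma, adjusted p of 0.626, 0.805, 0.372 and 0.538).

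Adam17, which releases tumour necrosis factor and many other surface proteins, had the highest mean mouse ratio of the 6 genes in Dll1 spleen. Its mouse ratios were 0.55, 0.65, 0.24 and 0.18 in Dll1 spleen, and 0.27, 0.39, 0.04 and -0.03 in wt spleen. All 4 Dll1 spleens and 3 of 4 wt spleens lay above 0, and the genotypes overlapped. The mean of 0.40 ± 0.23 in Dll1 spleen (SD, n = 4) is a fold of 1.32 (95% interval 1.07 to 1.63), with an adjusted p of 0.446 by limma. The wt spleens averaged 0.17 ± 0.20 (SD, n = 4; adjusted p 0.9999). The single arrays behind these means were far apart. With the clone in Cy5 the Dll1 spleens read 0.29, 1.45, -0.69 and 0.26, and with the clone in Cy3 they read 0.80, -0.14, 1.17 and 0.10. Mice 2 and 3 thus had arrays of opposite sign, and 6 of the 8 arrays lay above 0. When all 4 groups shared 1 estimate of the spread, Adam17 passed in Dll1 spleen, with the same mean of 0.40 and an adjusted p of 0.0207 by limma. That fit called 1099 of 15879 features (6.92%) in Dll1 spleen, against 0 in the fit of the spleens alone.

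In liver, Adam17 mouse ratios were 0.02, -0.02, 0.00 and -0.12 in Dll1 clones and 0.06, 0.19, 0.04 and 0.01 in wt clones. The wt livers split by dye. With the clone in Cy5 they read 0.21, 0.54, 0.20 and 0.16, and with it in Cy3 they read -0.08, -0.17, -0.13 and -0.14. Every wt liver mouse thus lay above 0 in one dye and below 0 in the other. The dye contrast averaged 0.20 ± 0.10 in wt liver (SD, n = 4; adjusted p 0.00852 by limma) and 0.05 ± 0.11 in Dll1 liver (SD, n = 4; adjusted p 0.593). Without wt mouse 2, whose contrast of 0.35 stood apart from 0.14, 0.17 and 0.15 in mice 1, 3 and 4, the wt liver value was 0.15 with an adjusted p of 0.0529 by limma.

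Ncstn, whose product nicastrin helps admit substrates to gamma-secretase, had liver mouse ratios mostly below 0. They were -0.20, -0.18, -0.28 and 0.04 in Dll1 clones and -0.14, -0.08, -0.08 and -0.04 in wt clones. The Dll1 livers averaged -0.16 ± 0.14 (SD, n = 4; adjusted p 0.493 by limma) and the wt livers -0.08 ± 0.04 (SD, n = 4; adjusted p 0.675). In spleen the ratios were 0.67, 0.24, 0.07 and 0.02 in Dll1 clones and 0.21, 0.35, -0.36 and -0.09 in wt clones. All 4 Dll1 spleens lay above 0 and the wt spleens lay on both sides, with adjusted p-values of 0.5999 and 0.9999 by limma. The dye contrast of Ncstn did not overlap between the spleens of the genotypes, and the share of all features without overlap was not counted. The contrast was -0.17, -0.13, -0.15 and -0.10 in Dll1 spleen and 0.29, 0.23, 0.15 and 0.29 in wt spleen. The group values of -0.13 and 0.24 had adjusted p-values of 0.411 and 0.243 by limma and did not pass. In liver the contrast was 0.00 in Dll1 clones and -0.08 in wt clones (limma, adjusted p 0.991 and 0.235).

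Aph1a, a scaffold subunit of gamma-secretase, had the smallest p of the 6 genes in Dll1 liver. Its mouse ratios were -0.10, -0.08, -0.15 and -0.16 in Dll1 liver and 0.03, 0.03, -0.10 and -0.03 in wt liver. All 4 Dll1 livers lay below 0, with a mean of -0.12 ± 0.04 (SD, n = 4; fold 0.919, 95% interval 0.866 to 0.975), and an adjusted p of 0.480 by limma. The wt livers averaged -0.02 ± 0.06 (SD, n = 4; adjusted p 0.943). The ranges of the genotypes overlapped. By dye, the wt livers read 0.08, 0.25, 0.18 and 0.39 with the clone in Cy5 and -0.02, -0.19, -0.38 and -0.44 with it in Cy3. The dye contrast was 0.24 ± 0.15 in wt liver (SD, n = 4; adjusted p 0.0121 by limma) and -0.06 ± 0.15 in Dll1 liver (SD, n = 4; adjusted p 0.583). Without wt mouse 4 the wt liver value was 0.18, with an adjusted p of 0.0722 by limma.

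The spleen probe of Aph1a was erratic. One Dll1 and 2 wt spleen arrays held no value. The 3 Dll1 spleens with both arrays had mouse ratios of -1.14, 1.33 and 0.30 in mice 1, 3 and 4, and the 2 wt spleens had -0.06 and 1.61 in mice 1 and 2. Dll1 mouse 3 read -1.38 with the clone in Cy5 and 4.04 with it in Cy3, and wt mouse 2 read 4.39 in Cy5 and -1.18 in Cy3. The Dll1 spleen mean was 0.16 with an SE of 0.53 (adjusted p 0.923 by limma, 3 mice), and wt spleen was not tested. The 95% interval of the Dll1 value ran from -1.13 to 1.45 (fold 0.457 to 2.74), so it includes 0 and wide shifts in both directions.

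Pofut1, which adds O-fucose to Notch, had liver mouse ratios of -0.05, -0.16, -0.15 and 0.02 in Dll1 clones and 0.11, -0.04, 0.06 and 0.15 in wt clones. The Dll1 livers averaged -0.08 ± 0.09 and the wt livers 0.07 ± 0.08 (SD, n = 4 each; adjusted p 0.581 and 0.699 by limma). By dye, the wt livers read 0.48, 0.04, 0.38 and 0.38 with the clone in Cy5 and -0.26, -0.12, -0.25 and -0.07 with it in Cy3. All 4 wt livers thus changed sign with the dye. The dye contrast was 0.25 ± 0.13 in wt liver (SD, n = 4; adjusted p 0.00679 by limma) and 0.10 ± 0.14 in Dll1 liver (SD, n = 4; adjusted p 0.330). In spleen the mouse ratios scattered around 0, at -0.48, 0.60, -0.10 and -0.10 in Dll1 clones and -0.50, -0.17, 0.07 and 0.28 in wt clones. Neither spleen group passed on the mouse ratio (limma, adjusted p 0.979 and 0.9999) or on the dye contrast (0.858 and 0.508).

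Rfng, the radical fringe enzyme, was the gene of the 6 with the lowest spleen means. The mouse ratios were -0.34, -0.61, -0.32 and -0.15 in Dll1 spleen and -0.06, -0.38 and -0.03 in wt mice 1, 2 and 4. All 7 measured spleens lay below 0. The Dll1 mean of -0.36 ± 0.19 (SD, n = 4) is a fold of 0.782 (95% interval 0.633 to 0.966), with an adjusted p of 0.471 by limma. The wt mean was -0.16 ± 0.20 (SD, n = 3; adjusted p 0.9999). With 1 spread for all 4 groups the Dll1 spleen value passed, at an adjusted p of 0.0429 by limma, in the same fit that called 6.92% of features there. The values came mainly from 1 dye: with the clone in Cy5 the Dll1 spleens read -0.69, -0.86, -0.82 and -0.16, and with it in Cy3 they read 0.01, -0.35, 0.18 and -0.15. The wt spleens read -0.40, -0.68 and -0.73 in Cy5 and 0.29, -0.09, 0.54 and 0.67 in Cy3. The dye contrast was -0.28 in Dll1 spleen and -0.45 in wt spleen (limma, adjusted p 0.229 and 0.202).

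In liver, Rfng gave the largest separation of the genotypes by dye. With the clone in Cy5, Dll1 mice 1, 3 and 4 read -0.23, -0.27 and -0.28, and the wt mice read 0.05, 0.14, 0.12 and 0.10. With the clone in Cy3, the Dll1 mice read 0.39, 0.18, 0.64 and -0.07, and the wt mice read -0.31, -0.42, -0.44 and -0.15. The 2 genotypes lay on opposite sides of 0 in Cy5, without overlap, and in Cy3 the groups also did not overlap. The share of all features without overlap was not counted. On the dye contrast, 41.2% of 16901 features differed between the genotypes in liver (limma, adjusted p under 0.05). The dye contrast was -0.29 ± 0.18 in Dll1 liver (SD, n = 3; adjusted p 0.0440 by limma) and 0.22 ± 0.08 in wt liver (SD, n = 4; adjusted p 0.0124). The Dll1 value lost its call without Dll1 mouse 1 or 3, with adjusted p-values of 0.165 and 0.182 by limma. Dll1 mouse 2 had no contrast for Rfng, so leaving it out kept the value at -0.29. The adjusted p was then 0.0618 by limma, a change that came through the other features. The wt value lost its call without wt mouse 2 or 3, with adjusted p-values of 0.0583 and 0.0544 by limma. On the mouse ratio, where the 2 dyes are averaged, Rfng was 0.08, 0.19 and -0.18 in Dll1 liver and -0.13, -0.14, -0.16 and -0.03 in wt liver, and neither passed (limma, adjusted p 0.902 and 0.619).

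**Figure D2:**
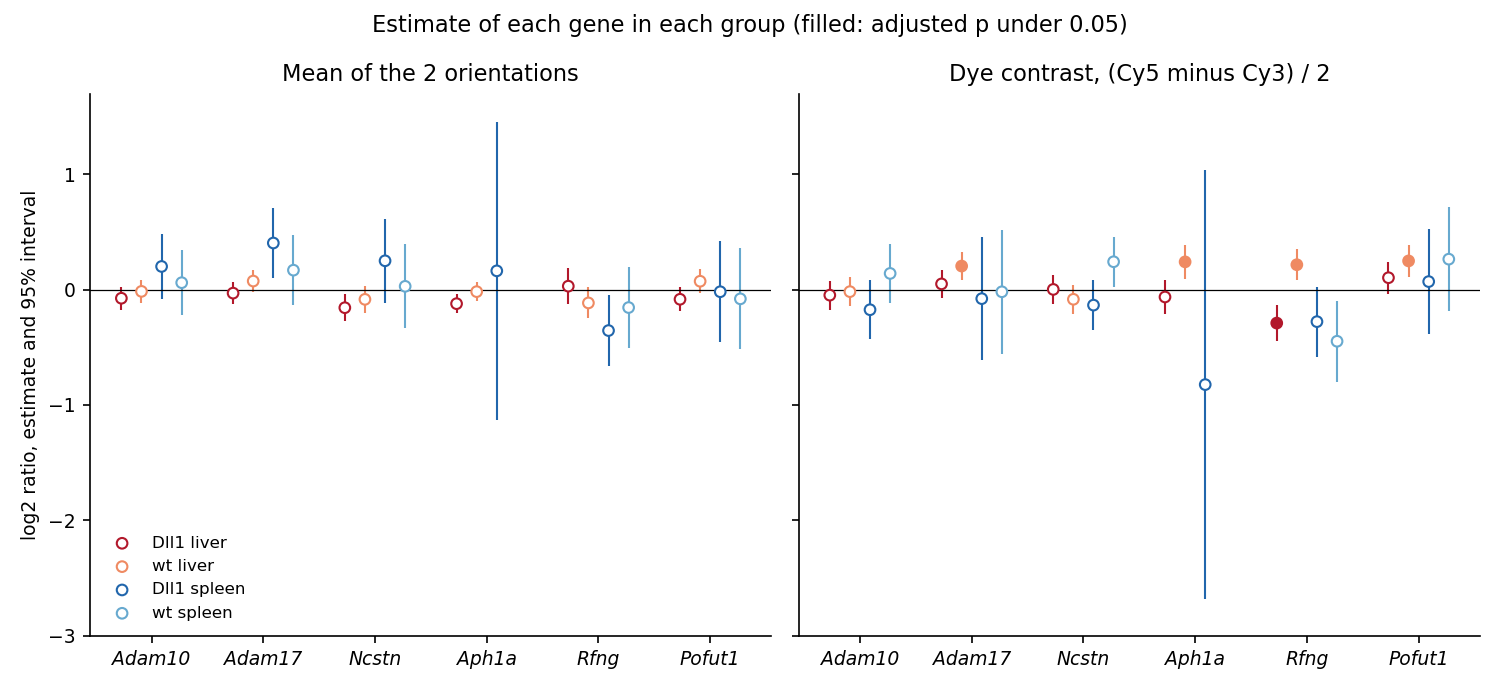
Fitted log2 value of each gene in each group with its 95% interval, as the mean of both orientations on the left and as the dye contrast on the right; filled points have an adjusted p under 0.05. The left panel has 0 filled points, and the right panel has 4 in wt liver (Adam17, Aph1a, Rfng, Pofut1) and 1 in Dll1 liver (Rfng).

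Counted over groups, the dye contrast passed for 4 of 6 genes in wt liver, Adam17, Aph1a, Rfng and Pofut1, all of them above 0. There 54.6% of all features passed, 5106 above 0 and 4146 below, so 4 of 6 is near the share of all features. In Dll1 liver 1 of 6 passed, against 4.92% of all features. In Dll1 spleen 0 of 6 passed, against 4.18% of features (limma; 0 of the 6 with an unadjusted p under 0.05, against 25.9% of features). In wt spleen 0 of 5 passed, against 1.1% (limma; 2 of the 5, Ncstn and Rfng, with an unadjusted p under 0.05, against 17.7% of features). The 2 arrays of a mouse had the same sign for the 6 genes in 11 of 23 cases in Dll1 liver, 5 of 24 in wt liver, 13 of 23 in Dll1 spleen and 8 of 21 in wt spleen. Over all features the shares were 45.5%, 25.6%, 43.8% and 40.6% in the same order of groups.

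**Figure D3:**
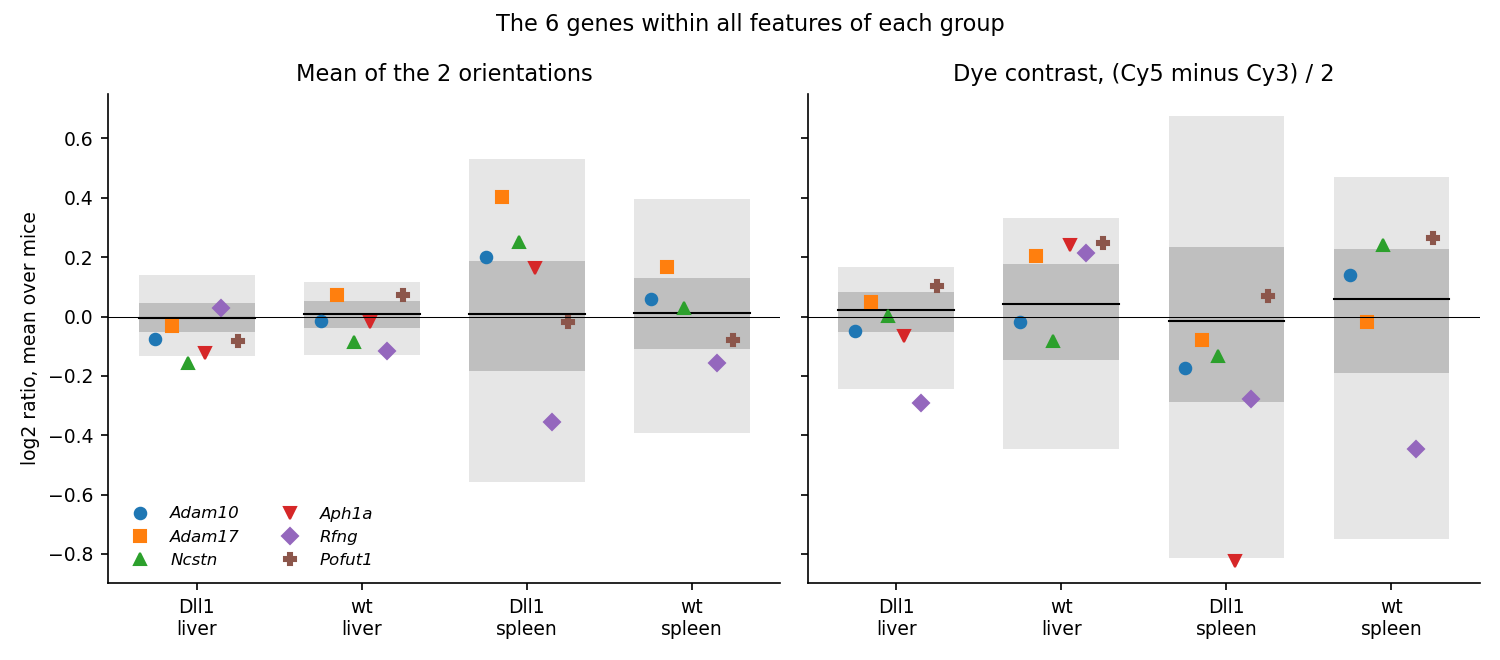
Mean over mice of each gene, as symbols, within all features of its group, shown as the 5th to 95th percentile (light bars), the 25th to 75th (dark bars) and the median (line); the mouse ratio is on the left and the dye contrast on the right, and groups with fewer than 3 mice are left out. Beyond the light bars lie Ncstn on the left (-0.16 in Dll1 liver) and, on the right, Rfng in Dll1 liver (-0.29) and Aph1a in Dll1 spleen (-0.82).

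Set against all features of the group, the 6 genes mostly lay within the 5th to 95th percentile. In Dll1 liver that range ran from -0.13 to 0.14 on the mouse ratio, and Ncstn lay below it. In Dll1 spleen it ran from -0.56 to 0.53, so Adam17 at 0.40 and Rfng at -0.36 lay inside it. Mouse ratios also varied more in spleen: their median SD over all features was 0.109 in Dll1 liver, 0.0867 in wt liver, 0.417 in Dll1 spleen and 0.267 in wt spleen. Spleen arrays of opposite dye had a mean r of -0.12 (Dll1) and -0.18 (wt) within a mouse. Between different mice it was -0.13 and -0.19. The parts of mice and of arrays in this spread were not tested.

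The genotypes were compared as the Dll1 clone ratio minus the wt clone ratio. On the mouse ratio 0 of 6 genes passed in liver, with 0% of 16901 features called, and 0 of 5 passed in spleen, with 0% of 15635 features called (limma). Of the 6 genes, 1 had an unadjusted p under 0.05 in liver, against 4.86% of features, and 0 in spleen, against 4.55%. That 1 was Pofut1, at -0.16 (SE 0.07, adjusted p 0.935 by limma). In liver, 5 of 6 differences were below 0, the exception being Rfng at 0.15 (95% interval -0.06 to 0.35). Adam10 differed by -0.06, Adam17 by -0.10, Ncstn by -0.07 and Aph1a by -0.10. In spleen, Adam17 differed by 0.24 (95% interval -0.20 to 0.67), Ncstn by 0.22 (-0.30 to 0.74) and Rfng by -0.20 (-0.67 to 0.27), while Adam10 differed by 0.14 (-0.26 to 0.54) and Pofut1 by 0.06 (-0.56 to 0.68). These spleen intervals include 0 and, except for Adam10, also differences of 1.5-fold.

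On the dye contrast, Aph1a and Rfng differed between the genotypes in liver. The difference was -0.30 for Aph1a (SE 0.09, adjusted p 0.0278 by limma) and -0.51 for Rfng (SE 0.09, adjusted p 0.00331). For Aph1a the call ended without Dll1 mouse 1 or 3 or wt mouse 2, 3 or 4, and with all 4 groups in 1 fit it ended for both genes. The differences that did not pass were -0.03 for Adam10, -0.15 for Adam17, 0.09 for Ncstn and -0.15 for Pofut1. Here 41.2% of 16901 features passed, so 2 of 6 is not above the share of all features. In spleen 0 of 5 passed, with 0% of features called (limma; 1 of the 5 with an unadjusted p under 0.05, against 6.91%). That gene was Ncstn, whose contrast was below 0 in 4 of 4 Dll1 spleens and above 0 in 4 of 4 wt spleens, a difference of -0.38 (SE 0.13, adjusted p 0.685 by limma). The others differed by -0.31 (Adam10), -0.06 (Adam17), 0.17 (Rfng) and -0.19 (Pofut1). For the split of Ncstn by sign, the share of all features was not counted.

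The organs were compared as the mean liver ratio minus the mean spleen ratio of a genotype, without pairing the mice. This sets one clone shift against another and not a liver level against a spleen level. A mouse lacking a value in 1 organ still counted in the other. All 4 groups shared 1 spread per gene, though mouse ratios varied more in spleen. In Dll1 clones 0 of 6 genes passed on the mouse ratio, with 0.0883% of 15863 features called (limma), but 4 of the 6 had an unadjusted p under 0.05, against 14.2% of features. Adam17 had a difference of -0.43 (SE 0.13, adjusted p 0.1795 by limma), and its 4 livers, at most 0.02, did not overlap its 4 spleens, at least 0.18. How many of all features had organs without overlap was not counted. Ncstn differed by -0.41 (adjusted p 0.285), Adam10 by -0.28 (adjusted p 0.315) and Rfng by 0.38 (adjusted p 0.269), by limma, and the organs overlapped in these genes. Aph1a differed by -0.28 and Pofut1 by -0.07 (limma, adjusted p 0.828 and 0.911). With the mouse as a replicate block, 0 of 6 genes passed in Dll1 clones and 0 features were called. Adam17 was then -0.43 (adjusted p 0.408), Ncstn -0.41 (0.450), Adam10 -0.28 (0.474) and Rfng 0.30 (0.549), by limma. Without the block, 0 of 5 passed in wt clones, with 0% of 16451 features called, and 0 had an unadjusted p under 0.05, against 6.19% of features (limma). There Adam17 differed by -0.09 (95% interval -0.37 to 0.18) and Rfng by 0.04 (-0.27 to 0.35), while Adam10 was at -0.08, Ncstn at -0.11 and Pofut1 at 0.15.

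On the dye contrast, liver and spleen of wt clones differed for Ncstn, by -0.33 (SE 0.10, adjusted p 0.0355 by limma), and for Rfng, by 0.66 (SE 0.15, adjusted p 0.0105). This was 2 of 5 genes, against 14.2% of all features. Adam10, at -0.16, Adam17, at 0.22, and Pofut1, at -0.02, did not pass. With the mouse as a replicate block, a fit added after seeing the data, Ncstn no longer passed (adjusted p 0.114) and Rfng was 0.64 (adjusted p 0.0492 by limma), and 1100 features were called against 2331 without the block. Leaving out any 1 wt mouse ended the call of Ncstn (limma, adjusted p of 0.0538, 0.122, 0.110 and 0.164 without mouse 1, 2, 3 and 4), and leaving out wt mouse 4 ended that of Rfng (0.0738). The 2 organs did not overlap for Ncstn or for Rfng, and the share of all features without overlap was not counted. For Rfng the contrast was 0.18, 0.28, 0.28 and 0.13 in wt liver and -0.35, -0.30 and -0.70 in wt mice 1, 2 and 4 in spleen. In Dll1 clones 0 of 6 passed on the dye contrast, against 4.26% of features (limma; 0 with an unadjusted p under 0.05, against 23.2%). The values there were 0.13 for Adam10, 0.13 for Adam17, 0.14 for Ncstn, 0.76 for Aph1a, -0.01 for Rfng and 0.03 for Pofut1.

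**Figure D4:**
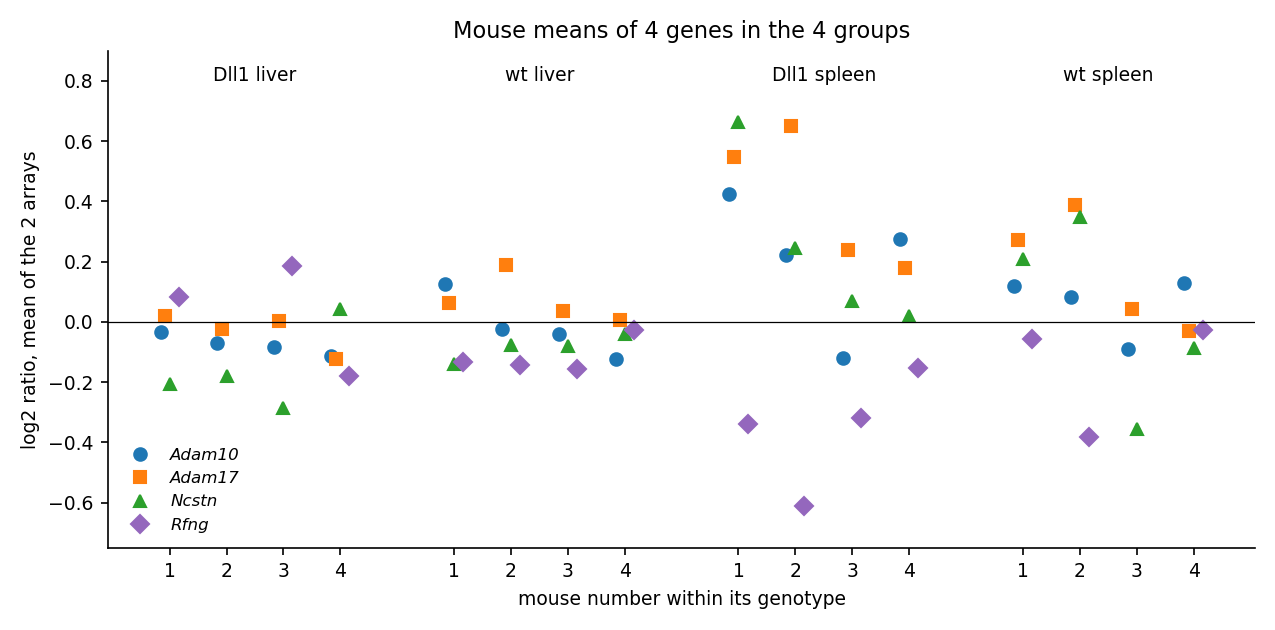
Mouse ratio (log2, mean of a mouse's 2 arrays) of Adam10, Adam17, Ncstn and Rfng for each of the 4 mice of each group; mouse numbers only name the animals. In Dll1 spleen, Adam17 (0.18 to 0.65) and Ncstn (0.02 to 0.67) lie above 0 in all 4 mice and Rfng (-0.61 to -0.15) lies below 0 in all 4.

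Among the 6 genes, some pairs moved alike over the mouse ratios of the 4 groups. Adam17 and Ncstn had r = 0.79 over 16 mouse-by-organ values, Adam10 and Ncstn 0.69, and Adam10 and Adam17 0.68. Rfng ran against Adam17 at r = -0.79 and against Ncstn at -0.71, over 14 values. With each group centred on its mean, these were 0.63, 0.48, 0.38, -0.57 and -0.50. The values of a mouse share its arrays and 1 pool per genotype, so these are descriptions. The 2 gamma-secretase genes, Ncstn and Aph1a, had r = -0.04 over 13 values (-0.48 with groups centred), and the 2 glycosyltransferase genes, Pofut1 and Rfng, -0.26 over 14 (-0.36 centred). Adam10 and Aph1a had -0.31 over 13 values and -0.71 centred, and the scattered spleen values of Aph1a enter each of its pairs.

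Among 6735 named genes with all 16 values, the patterns closest to Adam17 were those of Pou3f3 (Pearson r = 0.89) and Pcnt (0.89). Closest to Ncstn were Wasf2 (0.94) and Purb (0.91), and closest to Adam10 were Supt6 (0.89) and Avp (0.83). Pofut1 was most like Tedc1 (0.90) and Chrna4 (0.87). Aph1a and Rfng lacked values and were not ranked.

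Other genes of the pathway were read from 7 lists. On the mouse ratio 0 passed in any group (limma): 0 of 86 tested in Dll1 liver, 0 of 86 in wt liver, 0 of 81 in Dll1 spleen and 0 of 82 in wt spleen. Those with an unadjusted p under 0.05 numbered 5, 13, 5 and 2, where 9.26%, 8.92%, 10.1% and 3.70% of all features had one. Of 22 other cleavage enzymes and partners, 16 were tested in liver and 14 in spleen. The smallest p among them belonged to Bace2, another membrane protease, in both livers (0.86 in Dll1 liver, adjusted p 0.547; 1.57 in wt liver, adjusted p 0.376), to Tspan33, a tetraspanin that binds ADAM10, in Dll1 spleen (-0.67, adjusted p 0.424) and to Adam12 in wt spleen (-0.56, adjusted p 0.9999), by limma. Psen2, a catalytic subunit of gamma-secretase, had 0.00 in Dll1 liver, 0.02 in wt liver, 0.11 in Dll1 spleen and 0.20 in wt spleen. Furin, which cuts Notch on its way to the surface, had -0.05, -0.08, -0.36 and 0.01 in the same groups.

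Of 18 other glycosylation genes, 11 were tested. The smallest p belonged to Gmds, an enzyme of GDP-fucose synthesis, in Dll1 liver (0.12, adjusted p 0.529), to Gfus, the enzyme after it, in wt liver (0.12, adjusted p 0.542), to B4galt1 in Dll1 spleen (0.31, adjusted p 0.580) and to Fcsk, a fucose kinase, in wt spleen (-0.92, adjusted p 0.9999), by limma. Lfng, another Fringe gene, had -0.05, -0.01, -0.01 and -0.06 in Dll1 liver, wt liver, Dll1 spleen and wt spleen. The 5 further lists had as their genes of smallest p, in Dll1 liver, wt liver, Dll1 spleen and wt spleen, Dll3, Dll1, Notch2 and Notch2 for ligands and receptors, and Hey1, Il2ra, Il2ra and Hes6 for targets. They were Rbpj, Snw1, Tle1 and Rbpj for the nuclear complex, Numbl, Dtx3, Dtx3 and Dnm1 for trafficking and ubiquitin ligases, and Tnfrsf1a, Il6ra, Vcam1 and Lrp1 for other shed or cut substrates. Of these, Notch2, the receptor of marginal zone B cells, was 0.23 in Dll1 spleen and 0.31 in wt spleen (adjusted p 0.511 and 0.9999 by limma), and Dll1 itself was -0.08 in Dll1 liver, -0.40 in wt liver, 0.15 in Dll1 spleen and 0.25 in wt spleen (adjusted p 0.881, 0.471, 0.881 and 0.9999).

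On the dye contrast, 46 of 86 pathway genes passed in wt liver, 26 above 0 and 20 below. This is 53.5%, beside 54.6% of all features. Among the cleavage genes there, 5 of 16 passed above 0 (Adam12, Psen2, Rhbdf2, Timp3 and Tspan5) and 3 passed below 0 (Rhbdf1, Adam19 and Bsg), led by Rhbdf1, an inactive rhomboid that carries ADAM17 to the surface, at -0.42 (adjusted p 2.59e-04 by limma). Among the glycosylation genes 3 of 11 passed above 0 (Fut8, Pofut2 and Slc35c2) and 2 passed below 0 (Slc35c1 and Fcsk), led by the GDP-fucose transporter Slc35c1 at -0.54 (adjusted p 9.87e-05 by limma). In the other groups few passed: Tnfrsf1b (0.17) and Aplp1 (-0.25) in Dll1 liver, Furin (0.78, adjusted p 0.0442) in Dll1 spleen and Spen (-0.76, adjusted p 0.0418) in wt spleen, by limma.

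Cell type markers were measured beside these values. In spleen, 5 of 5 measured red cell markers of a list of 8 lay below 0 on the mouse ratio in both genotypes. Their medians were -0.71 in Dll1 spleen and -0.75 in wt spleen, and 0 of the 5 passed in either by limma. Those with an unadjusted p under 0.05 numbered 5 and 3, where 10.1% and 3.70% of all features had one. The red cell median over genes was -1.41, -0.93, -0.10 and -0.23 in Dll1 mice 1 to 4 and -0.46, -0.93, -0.50 and -0.42 in wt mice. The Dll1 spleens with the highest Adam17 ratios, mice 1 and 2, had the lowest red cell medians. Their macrophage and neutrophil medians were also the lowest, at -0.90 and -0.79, against 0.05 and -0.18 in mice 3 and 4. Mice 1 and 2 also had the highest Adam17 ratios in wt spleen. There the red cell median of mouse 1, -0.46, lay between those of mice 3 and 4. A link between these values was not tested. Macrophage and neutrophil markers had a median of -0.55 in Dll1 spleen, with 6 of 7 below 0, and 0.08 in wt spleen, with 2 of 7 below 0. Of these 7, 5 had an unadjusted p under 0.05 in Dll1 spleen and 1 in wt spleen (limma). For Dll1 minus wt in spleen 3 of the 7 had one, against 4.55% of all features, and 0% of features passed there. Marginal zone B cell markers had medians of 0.21 and 0.13, with 5 of 6 and 6 of 6 above 0. B cell markers had medians of 0.04 and 0.15, T cell markers 0.12 and 0.08, and pancreatic acinar markers 0.11 and 0.43 (4, 6 and 3 measured in Dll1 spleen). In liver, 6 of 6 hepatocyte markers lay below 0 in both genotypes, with medians of -0.08 in Dll1 liver and -0.27 in wt liver. By limma 0 passed, and 2 and 6 had an unadjusted p under 0.05, against 9.26% and 8.92% of all features. Of all markers measured, Hba-a1, a haemoglobin chain, passed in wt liver (-0.56, adjusted p 0.0298 by limma) and no other passed on the mouse ratio in any group. Cholangiocyte and endothelial markers had medians of -0.07 in Dll1 liver and -0.08 in wt liver. On the dye contrast, where 54.6% of features passed in wt liver, so did 4 of 4 B cell markers there (1 above and 3 below 0, median -0.40), 4 of 6 hepatocyte markers (3 above, 1 below, median 0.10), 4 of 6 marginal zone markers (2 above, 2 below) and 4 of 7 macrophage and neutrophil markers (3 above, 1 below). In Dll1 liver, B cell and hepatocyte markers had dye contrast medians of -0.01 each. In Dll1 spleen and wt spleen the dye contrast medians were 0.10 and 0.24 for red cell, -0.25 and -0.02 for macrophage and neutrophil, 0.31 and 0.27 for marginal zone and -0.35 and -0.26 for B cell markers. The part of cell composition in the values of the 6 genes was not tested.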

How the data were processed

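The deposited values are log2 ratios, 1 per row and array, and their base was read from the values; how they were scanned, normalized and filtered is not given in the sources used here. Per the labels, 20 µg of total RNA were labelled with Cy3 or Cy5, and the dyes were swapped on the second array of each mouse. Sizes above 9 (1183 values) were taken as constants of spots without a ratio and set to missing. The array number limits the precision. Probes of 1 gene were averaged, giving 17060 features. No further scaling was applied.

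For each mouse the mean of both arrays and the dye contrast were formed. limma 3.58.1 in R 4.3.3 (lmFit, eBayes) was fitted over all features with at least 3 mice in each group tested, both genotypes of an organ in 1 fit and all 4 groups for the organ difference, with Benjamini-Hochberg adjustment at 0.05. A mouse with 1 missing array was left out for that gene. The fit was tested on simulated data with known changes.

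The organs are paired, since liver and spleen came from the same mice; deviations of a mouse's liver and spleen from their group means correlated at r = -0.01 to 0.11. The members and gene lists were chosen with earlier results of these data known. All 6 genes are named in every comparison in which they were tested, and so are, for each pathway list, the gene of smallest p in each group and the genes past the threshold (in wt liver on the dye contrast, those of the cleavage and glycosylation lists). The 2 most similar genes were ranked over 16 values. Alternatives were turned Cy3 arrays, names as given, constants kept, centring, scaling, single probes, other fits and leaving out each mouse.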

Additional observations from a re-analysis of the deposited data

Results flagged for a closer look

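Of 40 sets of 4 mouse values looked at, 1 had a value far from the others: the dye contrast of Adam17 in wt liver was 0.3545 in mouse 2. Chance marks about 1 set in 20.

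With the Cy3 arrays turned, the genotypes differed in liver for Aph1a, by -0.3044, and for Rfng, by -0.5059, both past the threshold by limma for the difference itself. There 41.2% of 16901 features passed, so 2 of 6 is not above the share of all features. For Ncstn in spleen every Dll1 mouse lay below 0 and every wt mouse above it, a difference of -0.3761 that did not pass (adjusted p 0.685 by limma). The share of all features split in this way was not counted. Liver and spleen of wt clones differed on the same reading for Ncstn, by -0.3255, and for Rfng, by 0.6636, both past the threshold by limma without the replicate block. This was 2 of 5 genes, against 14.2% of 16451 features.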

How the results depend on the processing

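Of 1216 values of the 6 genes under alternatives, 1124 stayed on their side of the threshold with the same sign or a shift under 1 SD, 38 uncalled values changed sign by more, 34 lost and 10 gained a call, and 10 reversed where 1 of the 2 values was called. With the Cy3 arrays turned, 1 of 6 members was called in Dll1 liver (4.92% of all features) and 4 of 6 in wt liver (54.6%). For Dll1 minus wt in liver 2 of 6 were called (41.2%), and for liver minus spleen in wt 2 of 5 (14.2%). Of 45 values 28 then changed sign, in Dll1 spleen those of Adam17 (-0.08), Ncstn (-0.13), Adam10 (-0.17) and Aph1a (-0.82) among them. Called values reversed for Rfng in Dll1 liver (-0.29), wt liver (0.22) and Dll1 minus wt in liver (-0.51) and for Aph1a in wt liver (0.24). With all 4 groups in 1 fit, 2 members passed in Dll1 spleen on the mouse ratio, where it called 1099 features (6.92%). On the dye contrast that fit called 6 features in Dll1 liver (0.0355%), 1507 in wt liver (8.89%), 4960 in Dll1 spleen (31.2%) and 3300 in wt spleen (20.0%). Of the members it called 0 in Dll1 liver, 0 in wt liver, 1 in Dll1 spleen (Rfng) and 2 in wt spleen (Ncstn, Rfng). The call in Dll1 liver on the dye contrast became 0 with names as given, constants kept or each group in its own fit. It was also 0 with complete features only, where Rfng was not tested, since it lacks 1 liver and 1 spleen array. Leaving out mice gave 0 to 1 calls there and 2 to 4 in wt liver. With names as given, wt liver had 2 calls, and the dye contrast reversed for Adam10 (0.25), Adam17 (-0.22), Aph1a (-0.0133) and Pofut1 (-0.0065), since another row carries the name. The differences with the Cy3 arrays turned were put through the same alternatives after seeing the data. For Dll1 minus wt in liver, 0 members were called with all 4 groups in 1 fit, 1 with arrays scaled and 1 to 2 without 1 mouse. With complete features only, where Rfng was untested, 1 was called, and with names as given Adam17 was 0.25. For liver minus spleen in wt, 1 was called with names as given, with Adam17 at -0.35, and 1 with complete features only, where Rfng was untested. It was 0 to 1 without 1 mouse, and 1 with the mouse as a replicate block. That block took the features called there to 1100, against 2331, and in Dll1 to 2, against 675. On the mouse ratio, the paired fit with the mouse as a replicate block called 0 members in both genotypes for liver minus spleen, with Adam17 at -0.43 and Rfng at 0.30 in Dll1, and it took the features called in Dll1 to 0, against 14 without it. The 14 features called in wt liver on the mouse ratio, Hba-a1 among them, became 0 without wt mouse 1, 2 or 3 and 2 without mouse 4. The cause of the other changes was not tested. Signal over background was not analysed here.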
